A study of Mus musculus with 22 samples.

Results

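Celastrol was followed over time in the hypothalamus by setting the 3 arrays of mice collected 1 day after celastrol against the 4 arrays of mice collected 6 h after celastrol. These 7 arrays were chosen by their titles from 22 in the series, and every probe set with exactly 1 gene symbol was kept, which was 20228 of 23492. The mice were lean C57BL/6J males, 8 weeks old, fed normal chow for 2 weeks, and every label gives the brain region as hypothalamus. Celastrol, a triterpenoid from thunder god vine studied for its effect on food intake and body weight in obese rodents, was given by intraperitoneal injection in DMSO. The labels put 250 µg/kg beside the 6 h treatment and 100 µl of solution with 25 µl of DMSO per day beside the longer treatments. The sources used here do not state the dose of the 1 day group, and the number of injections is not clear from them. Below, a time after celastrol is the labelled time of a group, not necessarily the time since a single injection. DMSO-treated mice of the same strain, sex, age and diet supplied 4 arrays at 1 day and 4 at 6 h, and the series also holds 3 celastrol and 4 DMSO arrays at 4 days. Arrays were labelled as biological replicates. The limma p-values below rest on the spread between arrays within groups, estimated over all 22 arrays and moderated across genes. The permutation p-values use only the 7 celastrol arrays.

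The 2 time points differ in more than time after injection. The sources used here give neither the clock time of injection or collection nor the array batch. Within the celastrol arrays, time after celastrol, time of day, dose, number of injections and batch thus cannot be told apart. The DMSO arrays at the same times are therefore given beside the main results, and whether a time difference itself differed between treatments was tested as the celastrol difference minus the DMSO difference. Time of day matters in this tissue because the hypothalamus holds the master circadian clock, in which CLOCK and ARNTL drive Per and Cry genes and the Rev-erb repressors, and because feeding peptides and adrenal glucocorticoids cycle over the day. Glucocorticoids act through a nuclear receptor that induces genes such as Sgk1, Ddit4 and Fkbp5 in most brain cells. Injection and inflammatory signals in turn act through NF-kB, which induces its own inhibitor Nfkbia.

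Values are log2 intensities, on which a difference of 1 is a doubling. The medians of the 22 arrays over all probe sets lay between 8.58 and 8.66. Each array's mean correlation with the others of its group, over the 9880 genes tested below, was 0.989 to 0.995. Among the celastrol arrays at these times, 1 day replicate 2 had the lowest, 0.990. Transcripts that define the hypothalamus were bright in all 7 celastrol arrays, with Hcrt at 12.55 to 13.11 and Pmch, the melanin-concentrating hormone precursor, at 12.83 to 13.17. Of 18704 genes, 9880 exceeded the array median on 3 or more arrays and were tested with limma in a model of all 6 groups. Calls were made where the adjusted p (Benjamini-Hochberg, over the 9880 genes) was under 0.05.

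At 1 day after celastrol 2 genes were called against 6 h after celastrol, Fabp7 and Naa20, and both fell. That is 0.0202% of the 9880 genes tested. Fabp7 encodes the brain fatty acid binding protein of astrocytes and radial glia, and its transcript is known to cycle over the day in the mouse brain. Naa20 encodes the catalytic subunit of the NatB complex, which acetylates the amino termini of newly made proteins. No gene was called higher by limma, while 231 genes (2.34%) were higher and 497 (5.03%) lower at an unadjusted p under 0.05. These 728 genes were 7.37% of those tested. The share of higher genes among them was 31.7%, and it was 46.9% after a further quantile normalization and 55.4% after median centring, so the balance of directions depended on the scaling.

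The differences were small throughout. Across the 9880 genes they ran from -0.75 to 0.67 on the log2 scale, with a median size of 0.05 and a 95th percentile of size of 0.14. No gene differed by more than 1 in size. The 2 groups did not overlap for 331 genes that were higher at 1 day (3.35%) and for 438 that were lower (4.43%).

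The regions around the start sites of the called genes are shown with those of the 2 genes of smallest p among the higher ones, which were not called. Clock, NF-kB and glucocorticoid receptor motifs can be read in them. The 300 bases run from 250 before to 50 after the RefSeq start site in GRCm38.p6, 5′ to 3′ on the gene's strand. They are chr10:57784673-57784972 (plus) for Fabp7, chr2:145902991-145903290 (plus) for Naa20, chr10:59951721-59952020 (minus) for Ddit4 and chr12:55492598-55492897 (minus) for Nfkbia. Capitals mark matches to the searched motifs.
Fabp7: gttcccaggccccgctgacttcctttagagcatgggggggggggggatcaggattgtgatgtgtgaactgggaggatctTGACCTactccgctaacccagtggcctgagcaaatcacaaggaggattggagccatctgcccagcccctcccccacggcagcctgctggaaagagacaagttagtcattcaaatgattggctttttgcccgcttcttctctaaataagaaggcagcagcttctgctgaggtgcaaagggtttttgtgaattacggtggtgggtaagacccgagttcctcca
Naa20: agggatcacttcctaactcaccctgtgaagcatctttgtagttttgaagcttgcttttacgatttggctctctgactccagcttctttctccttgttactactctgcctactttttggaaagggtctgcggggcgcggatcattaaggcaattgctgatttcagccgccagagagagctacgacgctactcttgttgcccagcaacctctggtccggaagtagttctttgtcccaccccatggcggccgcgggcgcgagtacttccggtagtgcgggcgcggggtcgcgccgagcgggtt
Ddit4: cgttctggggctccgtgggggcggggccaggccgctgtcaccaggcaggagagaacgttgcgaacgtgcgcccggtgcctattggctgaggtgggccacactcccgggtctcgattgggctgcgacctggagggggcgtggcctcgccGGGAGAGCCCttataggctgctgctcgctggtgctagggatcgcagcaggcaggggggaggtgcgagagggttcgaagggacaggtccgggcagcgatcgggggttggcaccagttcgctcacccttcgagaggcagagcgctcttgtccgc
Nfkbia: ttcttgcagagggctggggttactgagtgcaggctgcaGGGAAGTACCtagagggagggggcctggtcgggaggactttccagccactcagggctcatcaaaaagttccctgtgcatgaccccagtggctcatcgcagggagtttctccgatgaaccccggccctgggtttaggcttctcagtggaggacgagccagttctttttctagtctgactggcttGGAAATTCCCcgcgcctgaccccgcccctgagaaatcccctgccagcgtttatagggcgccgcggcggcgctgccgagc

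Both strands were searched for 5 motifs, none of whose matches overlapped in these windows. The core of the ROR and Rev-erb response element, AGGTCA, was found once in Fabp7, on the opposite strand beginning 171 bases before the start site, and it is found in 16.3% of 32851 RefSeq promoters of the same length. The NF-kB motif, GGGA then any 4 bases then CC, was found once in Ddit4, beginning 102 bases before the start site, and at 2 places in Nfkbia, 212 and 29 bases before it, against 20.7% of promoters with a match. The E-box CACGTG (7.15% of promoters), the D-box TTANGTAA (2.32%) and the glucocorticoid response element, GNACA then any 3 bases then TGTNC (0.475%), were found in none of the 4 windows. A match describes these letters and no more.

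Fabp7 (probe set 10363224) measured 12.59, 12.26 and 12.63 in the celastrol arrays at 1 day, against 13.11, 13.01, 13.08 and 13.05 in those at 6 h. The 6 h arrays lay close together and all above the 1 day arrays, of which replicate 2 was the lowest. The means were 12.50 ± 0.203 (SD, n = 3) at 1 day and 13.06 ± 0.039 (SD, n = 4) at 6 h. The difference was -0.57 with a standard error of 0.09 and a 95% interval of -0.76 to -0.38, or 1.48-fold lower (limma adjusted p = 0.0146; two-sided exact permutation p = 0.0286, the smallest that 3 against 4 arrays can give). In the celastrol arrays labelled 4 days Fabp7 measured 13.07, 12.77 and 13.04, above the 1 day arrays in every case.

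Fabp7 showed the same direction without celastrol. It measured 12.81, 12.47, 12.54 and 12.61 in DMSO arrays at 1 day, against 13.08, 13.18, 12.95 and 12.94 in DMSO arrays at 6 h, again without overlap. Among all tested genes 4.99% were higher and 0.992% lower without overlap in DMSO arrays. The DMSO difference was -0.43 (limma adjusted p = 0.0593). The celastrol difference minus the DMSO difference was -0.14, with an interval of -0.40 to 0.12 (limma adjusted p = 0.763), so the time difference of Fabp7 was not shown to depend on celastrol.

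Naa20 (probe set 10572932) measured 10.61, 10.33 and 10.44 in the celastrol arrays at 1 day, against 10.90, 10.82, 10.98 and 10.88 in those at 6 h. The groups did not overlap, and the 1 day arrays varied more. The means were 10.46 ± 0.145 (SD, n = 3) at 1 day and 10.90 ± 0.065 (SD, n = 4) at 6 h. Naa20 was lower by a log2 difference of -0.44 (SE 0.07, interval -0.58 to -0.29), or 1.35-fold lower (limma adjusted p = 0.0146; two-sided exact permutation p = 0.0286). A separate probe set for Naa20, 10476775, gave -0.42 between the same arrays. In the celastrol arrays labelled 4 days Naa20 measured 10.57, 10.37 and 10.42, within the range of the 1 day arrays.

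In DMSO arrays Naa20 measured 10.73, 10.64, 10.60 and 10.71 at 1 day, against 10.95, 10.71 and 10.78 in 6 h replicates 2 to 4, with 6 h replicate 1 the highest. The DMSO groups overlapped, with a difference of -0.19 (limma adjusted p = 0.204). The difference between treatments was -0.25, with an interval of -0.44 to -0.05 and a limma adjusted p of 0.581 over all genes.

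The calls depended on which arrays were fitted. Without celastrol 1 day replicate 2 the differences were -0.45 for Fabp7 and -0.37 for Naa20, each with a limma adjusted p of 0.304, and no gene was called. No gene was called without celastrol 6 h replicate 1 or without celastrol 6 h replicate 3 either, with lowest adjusted p-values of 0.0836 and 0.0745. The differences themselves stayed close, at -0.55 and -0.56 for Fabp7 and -0.43 and -0.41 for Naa20. Without celastrol 1 day replicate 3 the adjusted p of Naa20 was 0.133, while Fabp7 alone was called. Without celastrol 1 day replicate 1, 8 genes were called, Ddit4 higher and Fabp7, Naa20, Dbt, Ap5m1, Rftn2, Scrg1 and Srr lower, a list taken as it came and not by a rule. When only the 7 arrays entered the fit, the differences were the same and the lowest adjusted p of any gene was 0.353.

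**Figure D1:**
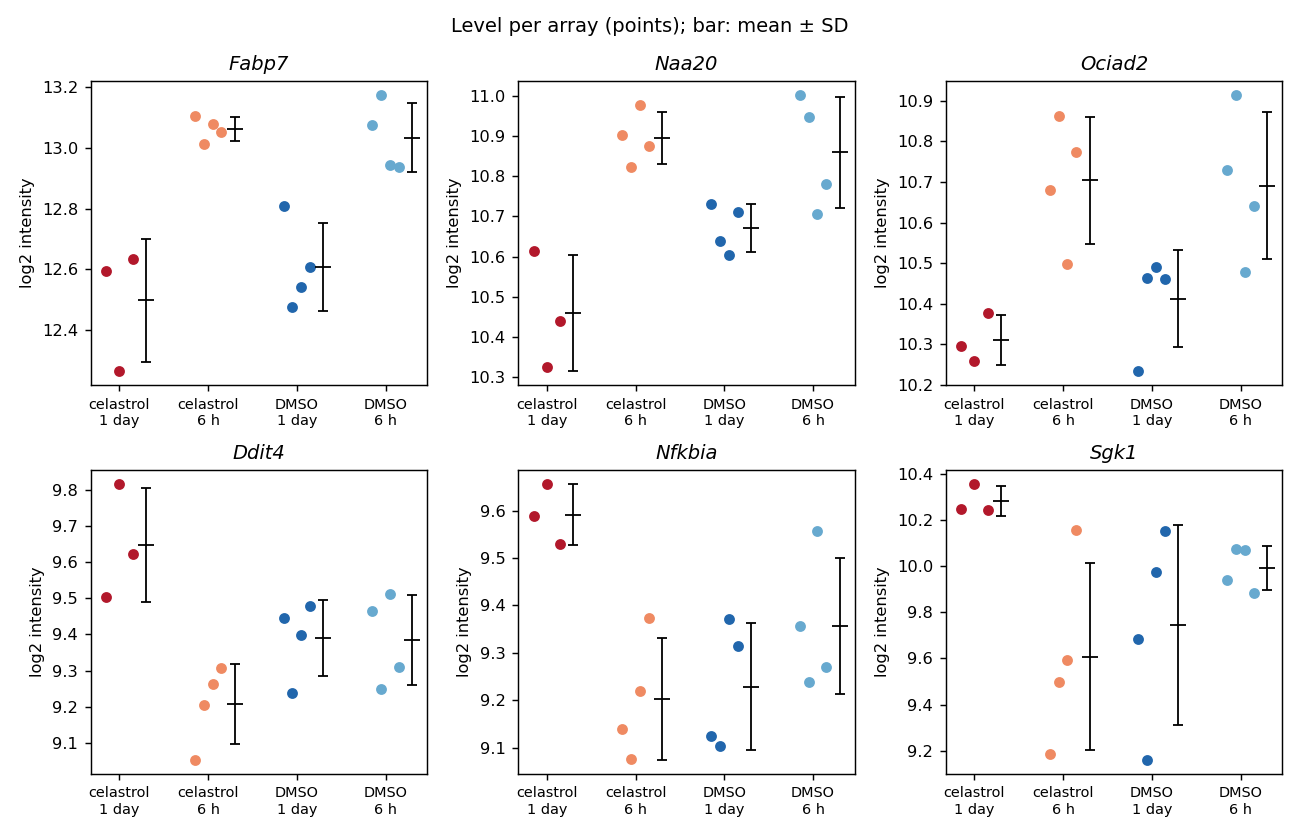
Log2 intensity (vertical axes, which do not start at 0) of 6 genes in each array of 4 groups, with celastrol at 1 day and 6 h left of DMSO at 1 day and 6 h. Points are arrays and bars the mean ± SD (n = 3 at 1 day after celastrol, n = 4 in each other group). Fabp7 separates 1 day from 6 h in both treatments, whereas Ddit4 and Nfkbia separate them in celastrol arrays and overlap in DMSO arrays.

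The next 8 genes on the lower side did not pass the test. They were taken as those of smallest p whose celastrol groups did not overlap, so the separation of their groups is part of the choice. Ociad2, whose product is a mitochondrial protein with an OCIA domain, had the largest difference of the 8. It measured 10.30, 10.26 and 10.38 at 1 day after celastrol, against 10.68, 10.86, 10.50 and 10.77 at 6 h, a difference of -0.39 (limma adjusted p = 0.22). Its DMSO difference was -0.28, of the same sign. In the celastrol arrays labelled 4 days it measured 10.35, 10.09 and 10.14, below every celastrol array at 6 h. Within 6 h, Ociad2 was highest in celastrol replicates 2 and 4, and in DMSO replicates 1 and 2 (10.73 and 10.91, against 10.48 and 10.64). The thalamus markers described below were highest in the same arrays. In DMSO arrays at 1 day, replicate 1 was lowest for Ociad2 but not for those markers. Whether Ociad2 follows the thalamus level was not tested.

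Among the rest of the 8, Lamp5, a lysosome-associated membrane protein of neurons, differed by -0.25 (limma adjusted p = 0.191), against -0.05 in DMSO arrays. Dbt, the transacylase subunit of the branched-chain keto acid dehydrogenase complex, differed by -0.21 (0.191 adjusted), against -0.06 in DMSO arrays. Drg1, a GTP-binding protein that acts on ribosomes, had the smallest p of the 8 and differed by -0.19 (0.162 adjusted), against -0.01 in DMSO arrays. Its levels were 11.11, 11.02 and 11.08 at 1 day after celastrol, against 11.22, 11.30, 11.25 and 11.25 at 6 h. Tmf1, a Golgi-associated coiled-coil protein, differed by -0.22, Cyria, which binds the GTPase RAC1, by -0.20, and Sgtb, a cochaperone, by -0.18, with the same limma adjusted p of 0.245. Their DMSO differences were 0.00 after rounding for Tmf1, -0.06 for Cyria and 0.02 for Sgtb. Rtf2, named for the termination of DNA replication, measured 10.12, 10.06 and 10.16 at 1 day, against 10.28, 10.31, 10.30 and 10.30 at 6 h (limma adjusted p = 0.22), with a DMSO difference of -0.05.

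On the higher side the 10 genes taken by the same rule had limma adjusted p-values of 0.162 to 0.414. Ddit4, also called Redd1, encodes an inhibitor of the growth-promoting mTORC1 kinase that stress and glucocorticoids induce. It measured 9.50, 9.82 and 9.62 at 1 day after celastrol, against 9.05, 9.21, 9.26 and 9.31 at 6 h. The means were 9.65 ± 0.159 (SD, n = 3) and 9.21 ± 0.112 (SD, n = 4), and the difference was 0.44 (SE 0.09; limma adjusted p = 0.162; exact permutation p = 0.0286). In DMSO arrays Ddit4 measured 9.45, 9.24, 9.40 and 9.48 at 1 day, against 9.47, 9.25, 9.51 and 9.31 at 6 h, which is a difference of 0.01. The mean of the celastrol 6 h arrays was thus the lowest of these 4 groups, and in the celastrol arrays labelled 4 days Ddit4 measured 9.60, 9.52 and 9.66.

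Nfkbia, the inhibitor that holds NF-kB in the cytoplasm and is itself an NF-kB target, measured 9.59, 9.66 and 9.53 at 1 day after celastrol. At 6 h after celastrol it measured 9.14, 9.08, 9.22 and 9.37, below all 3 of the later arrays. The difference was 0.39 (limma adjusted p = 0.22; exact permutation p = 0.0571). In DMSO arrays Nfkbia measured 9.12, 9.10, 9.37 and 9.31 at 1 day, against 9.36, 9.24, 9.56 and 9.27 at 6 h, a difference of -0.13. The difference between treatments was 0.52, with an interval of 0.27 to 0.77 and a limma adjusted p of 0.581.

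Wdr83os, a small protein of the endoplasmic reticulum membrane, measured 12.45, 12.58 and 12.39 at 1 day after celastrol, against 12.11, 12.02, 12.30 and 12.25 at 6 h. Its difference of 0.30 (limma adjusted p = 0.245) stood beside 0.24 in DMSO arrays. Sfrp5, a secreted Wnt antagonist, differed by 0.32 (0.391 adjusted), beside 0.28 in DMSO arrays. These 2 genes were thus higher at 1 day by similar amounts in both treatments. Mal, a proteolipid of myelin, differed by 0.24, the clock gene Per3 by 0.18 and Rgl2, an activator of Ral GTPases, by 0.15, with DMSO differences of 0.11, 0.09 and 0.02. Leng8 and the actin-binding coronin Coro6 each differed by 0.21, and Stxbp2, a syntaxin-binding protein of vesicle fusion, by 0.20, with DMSO differences of -0.05, -0.01 and 0.00.

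**Figure D2:**
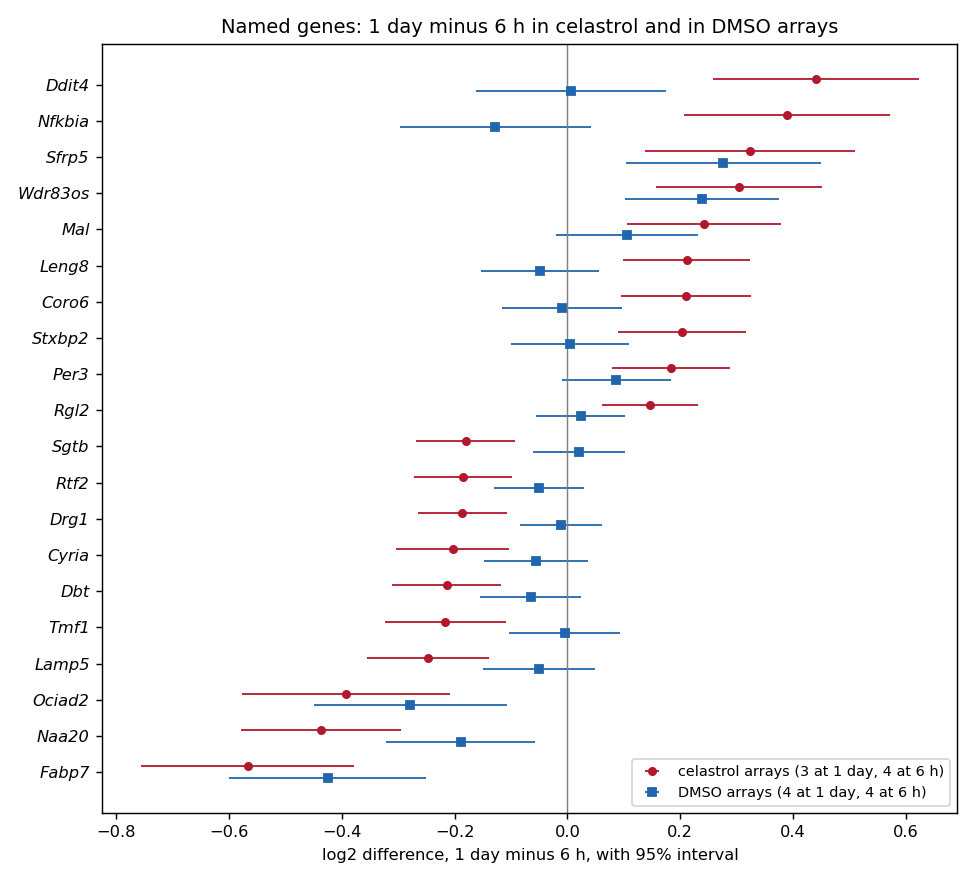
Log2 difference, 1 day minus 6 h (horizontal axis), of the 20 genes named by rule, with 95% intervals, in celastrol arrays (circles, 3 against 4 arrays) and DMSO arrays (squares, 4 against 4). Of the 10 lower genes 9 lie below 0 in DMSO as well, and of the 10 higher genes 7 lie above 0. The genes were chosen on the celastrol values, so those intervals describe chosen genes.

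The DMSO differences were not used in that choice, though the DMSO arrays entered the level filter and the shared estimate of spread. Of the 20 named genes, 16 had the same sign in DMSO arrays. Several of these signs rest on DMSO differences near 0, such as 0.01 for Ddit4 and -0.01 for Drg1. The opposite sign of Coro6 (-0.01 in DMSO arrays) does too. Among all 9880 genes, 53.6% had the same sign in both treatments, and among the 728 at an unadjusted p under 0.05 in celastrol arrays 62% did. The shares differ by direction because DMSO values leaned upward. Of the 497 lower genes, 56.1% were below 0 in DMSO arrays, against 35.6% of all genes. Of the 231 higher genes, 74.5% were above 0 in DMSO arrays, against 64.4% of all genes. Across the 9880 genes the correlation of the 2 time differences was r = 0.21 (Spearman rho = 0.16), a description over genes, which are not independent of each other.

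In the DMSO arrays themselves limma called no gene between 1 day and 6 h, with 1148 genes (11.6%) higher and 241 (2.44%) lower at an unadjusted p under 0.05. No gene passed for the difference between the treatments' time differences, for which the lowest limma adjusted p was 0.581. At an unadjusted p under 0.05 that difference held for 817 genes (8.27%), of which 124 (1.26%) were above 0 and 693 (7.01%) below.

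The 5 genes of smallest p above 0 in that test were Nfkbia, Adamts9, Ddit4, Leng8 and Lgals3. Adamts9, a secreted metalloprotease, measured 9.17, 9.10 and 9.13 at 1 day after celastrol, against 9.01, 8.91, 8.98 and 9.02 at 6 h. Its DMSO values were 8.85, 8.79, 8.76 and 8.95 at 1 day, against 8.97, 8.94, 8.89 and 9.06 at 6 h. The time differences of Adamts9 were 0.15 in celastrol and -0.13 in DMSO arrays, opposite in sign and each small. Lgals3, a galectin of activated microglia and macrophages, differed by 0.15 in celastrol and -0.21 in DMSO arrays.

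The 5 genes of smallest p below 0 were Zfp622, Psmd10, Exoc3, Mocs2 and Sde2. For Zfp622, a zinc finger protein, and Exoc3, an exocyst subunit, the celastrol difference was near 0 (-0.07 and -0.03) and the DMSO difference was 0.28 and 0.19. Psmd10, a proteasome assembly chaperone, differed by -0.17 in celastrol and 0.17 in DMSO arrays, Sde2 by -0.22 and 0.14, and Mocs2, an enzyme of molybdenum cofactor synthesis, by -0.10 and 0.20. None of these 10 genes passed over all genes.

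**Figure D3:**
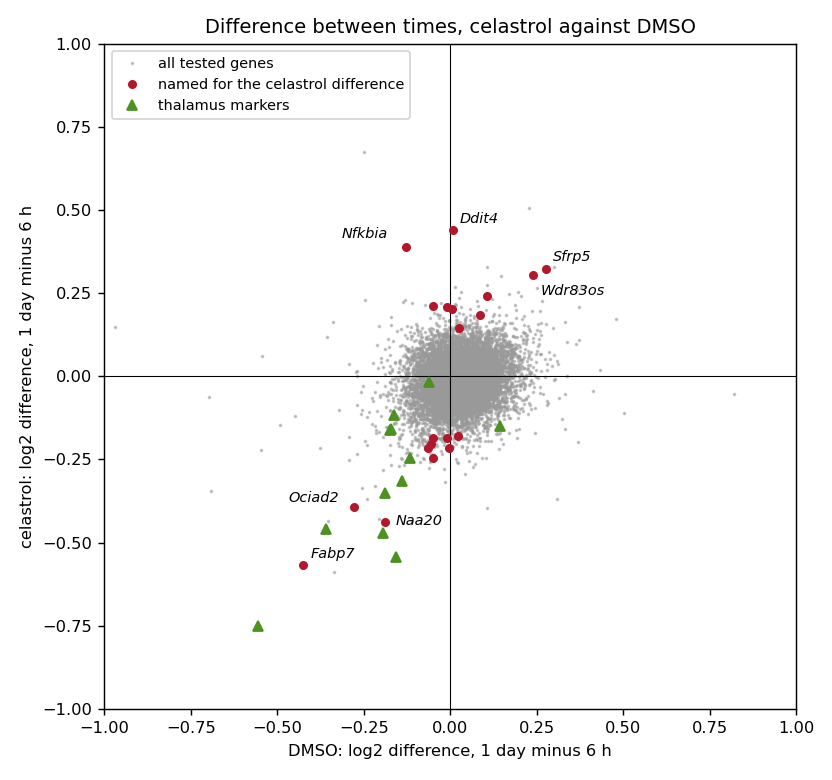
Log2 difference, 1 day minus 6 h, in celastrol arrays (vertical axis) against that in DMSO arrays (horizontal axis) for the 9880 tested genes (grey), the 20 named genes (circles) and 12 thalamus markers (triangles). Fabp7, Naa20 and Ociad2 lie below 0 in both treatments, among most of the thalamus markers, while Ddit4 and Nfkbia lie high at DMSO differences of 0.01 and -0.13.

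The circadian clock list, written for this comparison like the other lists, had 22 tested members of 27. None was called, 11 lay above 0 and 11 below, and the median difference was 0.00 after rounding, against -0.01 over all tested genes. At an unadjusted p under 0.05, 1 member was higher, Per3, and 3 were lower, against 2.34% and 5.03% of all genes. Per3, a period gene of the negative limb, measured 9.85, 9.77 and 9.91 at 1 day after celastrol, against 9.62, 9.58, 9.76 and 9.67 at 6 h. Arntl (Bmal1), the activating partner of CLOCK, measured 9.10, 8.82 and 8.83 at 1 day, against 9.19, 8.99, 9.11 and 9.06 at 6 h, a difference of -0.17 (limma adjusted p = 0.548), beside -0.06 in DMSO arrays. The Per3 groups did not overlap and the Arntl groups did.

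Nr1d1, the Rev-erb alpha repressor of the clock, measured 11.89, 11.87 and 11.88 at 1 day after celastrol, against 11.95 to 12.02 at 6 h, without overlap. Its difference was -0.11 (limma adjusted p = 0.64), beside -0.02 in DMSO arrays. Per1 differed by 0.12, Per2 by 0.00, Cry1 by 0.14, Dbp by 0.02, Clock by -0.08 and Bhlhe40 by -0.15, and none of these passed. Tef and Hlf, clock output factors of the same family as Dbp, differed by 0.00 after rounding and by -0.05.

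The glucocorticoid response list had 26 tested members of 32, of which 20 lay above 0 and none was called. Its median was 0.05, beside 0.02 in DMSO arrays and -0.01 over all genes in celastrol arrays. At an unadjusted p under 0.05, 4 members were higher and 1 lower, against 2.34% and 5.03% of all genes, and 5 were higher without overlap, against 3.35%. The list's largest difference was that of Sgk1, a serum- and glucocorticoid-regulated kinase, which was also the largest positive difference of all tested genes. Sgk1 measured 10.25, 10.36 and 10.24 at 1 day after celastrol, against 9.18, 9.50, 9.59 and 10.16 at 6 h. The 1 day arrays were tight and the 6 h arrays spread over almost 1 log2 unit, with replicate 4 near the 1 day level.

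The Sgk1 difference was 0.67 (SE 0.21, interval 0.24 to 1.11; limma adjusted p = 0.448; exact permutation p = 0.0571). In DMSO arrays Sgk1 measured 9.69, 9.16, 9.98 and 10.15 at 1 day, against 9.94, 10.07, 10.07 and 9.88 at 6 h, so there the wide spread was at 1 day. Other standard targets differed less. Fkbp5 differed by 0.06, Tsc22d3 by 0.03, Pdk4 by 0.02, Klf9 by 0.08, Zbtb16 by 0.15 and the metallothionein Mt2 by -0.09. Arrdc2, dim and not tested for calls, measured 8.55, 8.56 and 8.46 at 1 day, against 8.00, 8.10, 8.25 and 8.45 at 6 h. The list median was -0.01 without celastrol 1 day replicate 1 and also without celastrol 6 h replicate 1.

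The immediate early list, genes switched on within minutes of neuronal firing or injection stress, had 14 tested and 15 dim members. Of the tested members 6 lay above 0, none passed an unadjusted p of 0.05 in either direction, and the median was 0.00 after rounding, beside 0.08 in DMSO arrays. Egr3 differed by 0.14, Homer1 by 0.08, Egr1 by -0.08, Nr4a2 by -0.10 and Arc by 0.00 after rounding.

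The list of acute phase genes and of interleukin-1 and NF-kB pathway genes had 11 tested members of 40, since 25 were dim. Among the tested ones 7 lay above 0, and the median was 0.00 after rounding, beside 0.04 in DMSO arrays. Nfkbia, Ptgs2 and the endothelial adhesion molecule Vcam1 were higher at an unadjusted p under 0.05 and none was lower. These are 3 and 0 of 11 members, against 2.34% and 5.03% of all genes. In DMSO arrays 3 members were also higher and 0 lower, against 11.6% and 2.44% of all genes. Ptgs2, the inducible prostaglandin synthase, measured 8.96, 8.39 and 8.62 at 1 day after celastrol, against 7.60, 8.19, 8.65 and 8.17 at 6 h. The difference was 0.51 (SE 0.17; limma adjusted p = 0.486), with overlap because 6 h replicate 3 lay within the 1 day range. Its DMSO arrays lay between 7.76 and 7.93 at 1 day, against 7.55 to 7.75 at 6 h.

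Osmr, the oncostatin M receptor, measured 9.06, 8.37 and 8.36 at 1 day, against 7.77, 8.47, 8.83 and 8.42 at 6 h. Its difference was 0.22 (limma adjusted p = 0.809), and -0.01 without celastrol 1 day replicate 1, beside -0.11 in DMSO arrays. Lcn2, the iron-binding acute phase protein lipocalin 2, measured 10.19, 8.08 and 7.86 at 1 day, against 6.98, 10.48, 9.20 and 7.52 at 6 h. Within each time the celastrol arrays spread over more than 2 log2 units for Lcn2, and the difference of 0.16 (SE 0.60; adjusted p = 0.966) was well inside that spread. In DMSO arrays Lcn2 differed by -0.34. Celastrol 6 h replicate 1 was the lowest of the 7 arrays for Osmr, Ptgs2 and Lcn2, and celastrol 1 day replicate 1 the highest for Osmr and Ptgs2.

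Of feeding neuropeptides and their receptors, 31 of 40 listed genes were tested and none was called. The median was 0.01, and 18 lay above 0. Hcrt was higher and Nts and Vgf were lower at an unadjusted p under 0.05, against 2.34% and 5.03% of all genes. Hcrt, the orexin precursor of the lateral hypothalamus, measured 12.84, 12.99 and 13.11 at 1 day after celastrol, against 12.55, 12.57, 12.64 and 12.84 at 6 h. Its difference of 0.33 (limma adjusted p = 0.448) stood beside 0.30 in DMSO arrays, and the difference between treatments was 0.03.

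Nts, the precursor of the satiety peptide neurotensin, measured 8.76, 8.38 and 8.78 at 1 day after celastrol, against 9.28, 9.14, 8.82 and 8.90 at 6 h. Nts differed by -0.40 (limma adjusted p = 0.515), beside 0.11 in DMSO arrays. Vgf, a secreted neuronal peptide precursor, differed by -0.19, beside -0.04 in DMSO arrays. Npy, the appetite-stimulating peptide of the arcuate nucleus, differed by 0.26 (limma adjusted p = 0.711), beside 0.37 in DMSO arrays, and Pomc, the precursor of the appetite-suppressing melanocortins, by 0.04, beside 0.06. The leptin receptor Lepr (0.08) and its feedback inhibitor Socs3 (-0.02) were dim and not tested for calls.

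In the leptin and JAK-STAT3 list 9 of 19 tested members lay above 0 and the median was -0.01. Jak1, a kinase of cytokine receptors, differed by -0.13 and Pim3, a STAT3-responsive kinase, by 0.14. Neither passed.

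Stress and synthesis pathways moved little. In the heat shock list 6 of 21 tested members lay above 0, 3 were lower at an unadjusted p under 0.05 (5.03% of all tested genes) and 5 were lower without overlap (4.43%), with a median of -0.05 beside -0.01 in DMSO arrays. Hsph1, a nucleotide exchange factor for HSP70, measured 11.40, 11.31 and 11.43 at 1 day after celastrol, against 11.67, 11.49, 11.55 and 11.56 at 6 h, a difference of -0.19 (limma adjusted p = 0.342), beside -0.09 in DMSO arrays. Stip1, which links HSP70 to HSP90, differed by -0.15 and Hspa4 by -0.10, beside -0.07 and -0.01 in DMSO arrays. Without celastrol 1 day replicate 2 the list median was 0.01 with 12 of 21 above 0, so its sign rested on that array.

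In the unfolded protein response list 9 of 26 tested members lay above 0 (median -0.02, beside 0.03 in DMSO arrays), and Hspa5, the main chaperone of the endoplasmic reticulum, differed by 0.03, beside 0.06. NRF2 targets had 14 of 23 above 0 (median 0.02, beside 0.06 in DMSO arrays), cholesterol and fatty acid synthesis 12 of 27 (median -0.01), interferon-stimulated genes 5 of 8 (median 0.03, beside 0.07) and fasting and fatty acid oxidation, which holds Fabp7, 10 of 21 (median -0.01). Splicing and RNA processing genes had 19 of 31 above 0 (median 0.04), and temperature-responsive and hypoxia genes 8 of 15 (median 0.00 after rounding). Fabp7 was the only member of any list here that was called.

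Oxidative phosphorylation subunits had a median of -0.02 in celastrol arrays, with 18 of 42 above 0, beside 0.07 in DMSO arrays, with 36 of 42 above 0. Proteasome subunits had a median of 0.00 with 15 of 31 above 0 in celastrol arrays, beside 0.11 with 28 of 31 above 0 in DMSO arrays. DMSO 1 day replicate 1 had the highest mean level of all these arrays for both lists. It was 11.59 for oxidative phosphorylation, against 11.47 to 11.49 in the other DMSO arrays at 1 day, and 10.95 for the proteasome, against 10.77 to 10.83. Without that array the DMSO median of oxidative phosphorylation was 0.03. The DMSO median of the proteasome list stayed at 0.09 to 0.14 with each DMSO array left out in turn. In DMSO arrays 12 oxidative phosphorylation and 16 proteasome members were higher at an unadjusted p under 0.05, against 11.6% of all genes. None of either list was lower, against 2.44%. The medians of the difference between treatments were -0.08 and -0.10, against -0.04 over all genes, and -0.03 and -0.05 after median centring, which put all genes at 0.01. Of the proteasome subunits, 8 were below 0 at an unadjusted p under 0.05 in that test, as were 7.01% of all genes, and none was called. The difference of either list between treatments was not tested. Cytosolic ribosomal proteins had 18 of 34 above 0 and a median of 0.00 in celastrol arrays, beside 0.06 in DMSO arrays.

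Markers of cell types and of neighbouring tissue were read for the same arrays. In whole tissue, fewer cells of a type and less RNA per cell cannot be told apart. Thalamus markers had the median farthest from 0 of all the lists. All 12 listed were bright enough to be tested, among them Rora, which is also on the clock list, 0 lay above 0, 7 were lower at an unadjusted p under 0.05 (5.03% of all tested genes) and 3 were lower without overlap (4.43%), with a median of -0.28. None was called. In DMSO arrays 1 of 12 lay above 0 and the median was -0.17.

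The mean level of the 12 thalamus markers was 9.83, 9.75 and 9.82 in the celastrol arrays at 1 day, against 9.90, 10.41, 9.82 and 10.33 at 6 h. At 6 h after celastrol, replicates 2 and 4 were high and replicates 1 and 3 were at or near the 1 day level. DMSO arrays had 9.90, 9.83, 10.07 and 9.87 at 1 day, against 10.21, 10.35, 9.91 and 9.91 at 6 h, so there replicates 1 and 2 were the high ones. Prkcd, a protein kinase C of thalamic relay neurons, measured 8.96, 8.90 and 8.97 at 1 day after celastrol, against 8.88, 10.71, 8.89 and 10.29 at 6 h. Its difference of -0.75 was the most negative of all tested genes (limma adjusted p = 0.67). Tcf7l2, a Wnt pathway transcription factor of thalamic neurons, measured 9.89, 9.80 and 10.03 at 1 day, against 10.15, 10.72, 9.94 and 10.70 at 6 h.

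Without celastrol 6 h replicates 2 and 4 the thalamus median was -0.07, with 3 of 12 above 0, and no gene was called. The difference was -0.60 for Fabp7 (limma adjusted p = 0.173) and -0.48 for Naa20 (0.127), beside -0.57 and -0.44 with all arrays. Within celastrol 6 h the Fabp7 level was 13.01 and 13.05 in the high thalamus arrays and 13.11 and 13.08 in the others. That removal was chosen after seeing the data, and whether either gene follows the thalamus level was not tested. Cck, a peptide on the list of regional hypothalamic neurons that thalamus and cortex also express, measured 9.67, 9.46 and 9.64 at 1 day after celastrol. At 6 h after celastrol it measured 9.89, 10.15, 9.88 and 10.17, and was highest in replicates 2 and 4.

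**Figure D4:**
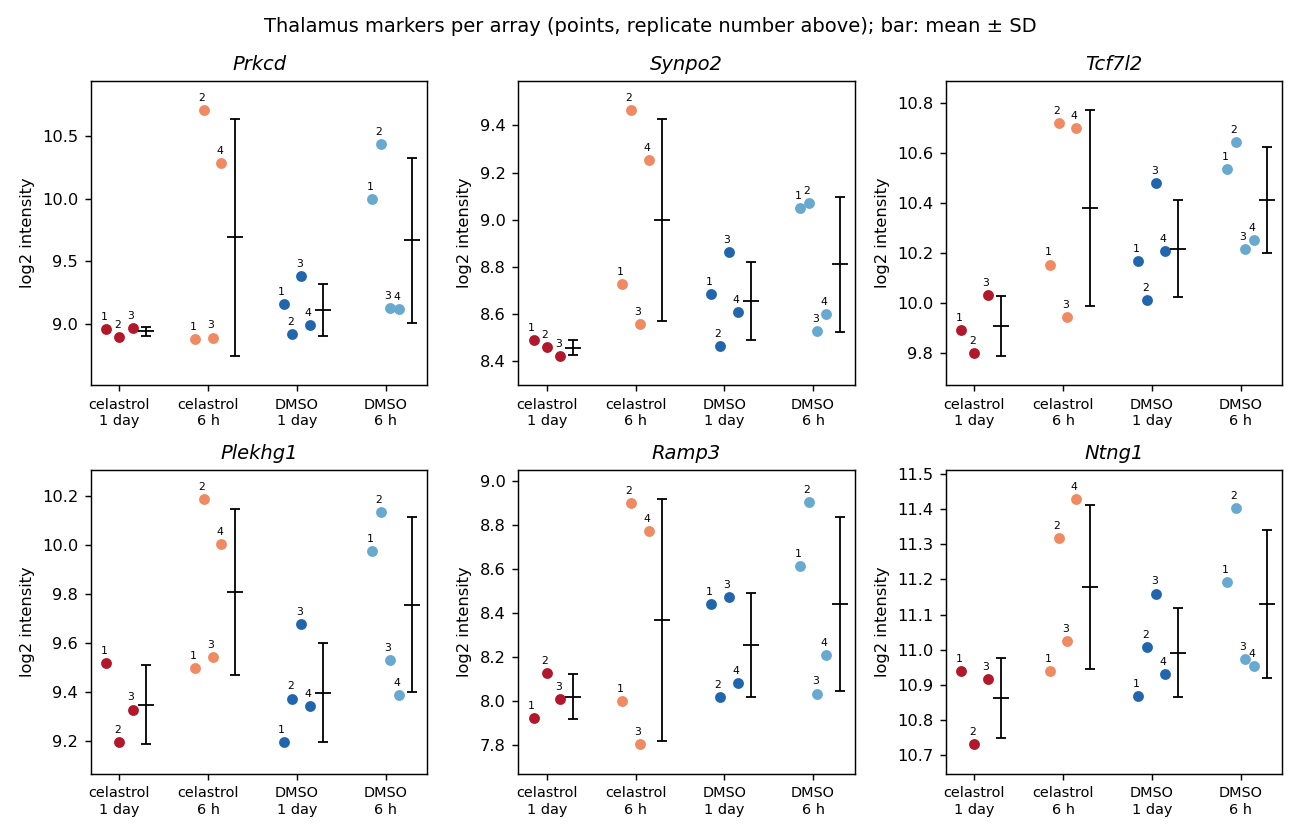
Log2 intensity (vertical axes, which do not start at 0) of the 6 thalamus markers with the most negative celastrol difference, per array, with replicate numbers above the points and bars for the mean ± SD (n = 3 at 1 day after celastrol, n = 4 in each other group). Celastrol 6 h replicates 2 and 4 and DMSO 6 h replicates 1 and 2 lie highest of their groups in every panel.

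Other markers gave smaller values. Myelin and oligodendrocyte genes had 17 of 20 above 0, against 45.6% of all tested genes. Their median was 0.06, beside 0.07 in DMSO arrays, and 2 were higher at an unadjusted p under 0.05 (2.34% of all tested genes). Mal measured 11.74, 11.94 and 11.77 at 1 day after celastrol, against 11.47, 11.58, 11.52 and 11.74 at 6 h, and Mobp differed by 0.11, beside 0.02 in DMSO arrays. Without celastrol 6 h replicates 2 and 4 the myelin median was 0.02 with 11 of 20 above 0. Astrocyte genes, the class to which Fabp7 belongs, had 15 of 21 above 0 and a median of 0.02, and Gjb6, an astrocyte connexin, differed by -0.18, beside -0.08 in DMSO arrays. Fabp7, lower at 1 day, is not on this list, and whether its difference follows astrocyte content was not tested.

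Neuron markers had 4 of 18 above 0 and a median of -0.03, and ependymal markers 0 of 5 with a median of -0.10 in both treatments. Microglia and macrophage markers had 6 of 12 above 0, with Cx3cr1 and C1qc at -0.17 each and Laptm5 at 0.14, beside 0.00 after rounding, -0.09 and 0.30 in DMSO arrays. The list medians were -0.01 in celastrol and 0.02 in DMSO arrays. Endothelial and pericyte markers had 13 of 18 above 0 (median 0.01, beside 0.07 in DMSO arrays), and the tight junction gene Cldn5 differed by -0.25 (limma adjusted p = 0.532), beside 0.09. Regional hypothalamic neuron markers had 14 of 20 above 0, markers of cortex, hippocampus and striatum 9 of 12, leptomeningeal markers 7 of 12, oligodendrocyte precursors 3 of 8 and choroid plexus markers 1 of 3. Of blood markers none was bright enough to be tested, and the thyroid hormone and tanycyte list had 10 of 14 above 0.

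Pituitary markers had 6 of 6 above 0 with a median of 0.07 in celastrol arrays, beside -0.25 in DMSO arrays. The 6 include Pomc, named above among feeding peptides, and 7 others were dim. The level filter ran over all arrays, so arrays where a member was high could help it pass. Lhb measured 9.92 in DMSO 6 h replicate 4, against 8.22, 8.24 and 8.67 in replicates 1 to 3. With no filter on level 12 of 13 members lay above 0 in celastrol arrays. The DMSO median moved when single arrays were left out. It was 0.03 without DMSO 6 h replicate 4 and -0.01 without DMSO 1 day replicate 4, -0.36 and -0.33 without DMSO 6 h replicates 1 and 2, and -0.11 over 13 members with no filter on level. Growth hormone, Gh, one of the most abundant pituitary transcripts, lay between 7.64 and 8.11 at 1 day after celastrol, against 7.57 to 7.87 at 6 h. It reached 10.98 in a DMSO array at 1 day and 11.48 in one at 6 h. The 7 celastrol arrays were thus all low for Gh while single DMSO arrays were not.

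**Figure D5:**
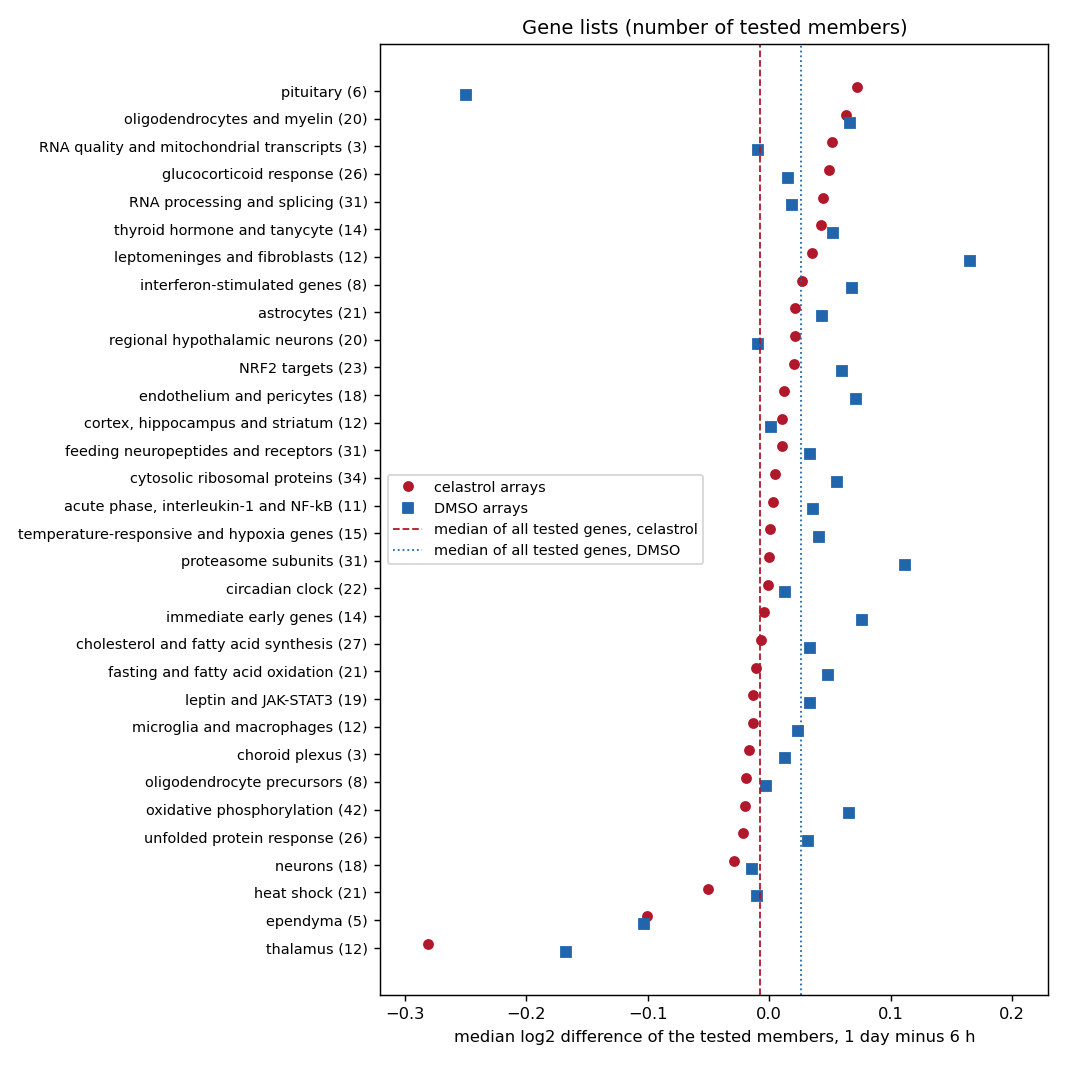
Median log2 difference, 1 day minus 6 h (horizontal axis), of the tested members of each gene list with at least 3 tested members (vertical axis, number in brackets), in celastrol arrays (circles) and DMSO arrays (squares). Lines mark the medians of all tested genes, -0.01 in celastrol and 0.03 in DMSO arrays. Most lists lie near the lines, thalamus markers lie lowest in celastrol arrays at -0.28, and pituitary markers lie lowest in DMSO arrays at -0.25, a median that was 0.03 without DMSO 6 h replicate 4.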

How the data were processed

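Hypothalamic RNA of 22 mice was extracted with Trizol, cleaned on columns and labelled with biotin for Affymetrix whole-transcript arrays, per the labels' protocols. The deposited values are log2 intensities that the authors made with RMA, per the submitters' processing notes. RMA corrects background, quantile-normalizes the arrays and combines probes into probe sets, which removes differences in total signal between arrays. No version of it is stated in the sources used here. There were 23492 probe sets and 22 arrays, values ran from 3.83 to 15.2, and the table had 0 identical pairs of arrays and 0 columns of other series. Arrays have no read depth, and the number of arrays limits the precision.

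Symbols came from the platform annotation: 20228 probe sets had 1 symbol, 1399 several and 1865 none. Several probe sets named the same gene for 809 of 18704 genes, and the brightest on average stood for the gene. Genes exceeding the array median on 3 or more arrays were tested (9880, with 8824 left aside as dim). The 6 group means were fitted together over the 22 arrays by lmFit and eBayes of limma 3.58.1 (R 4.3.3). The median residual SD was 0.0758, with 16 residual degrees of freedom and a prior of 6.06. Tests were two-sided, with Benjamini-Hochberg adjustment. Single genes were also tested by exact permutation over the 35 splits of 7 arrays. Steps were tested on simulated data. Promoters are RefSeq's for GRCm38.p6. Python 3.11.15 with matplotlib 3.10.9 drew the figures.

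The comparison, gene lists and tests were chosen with earlier results of these data known. Named genes were to be called genes whose groups did not overlap, filled to 10 each way by smallest unadjusted p, plus the 5 each way of smallest p for the difference between treatments, up to 3 members per list, all clock, glucocorticoid and immediate early genes, and Osmr, Ptgs2, Lcn2, Lepr, Socs3, Pomc, Npy, Hspa5 and Nfkbia. Agrp and Il1r1 were also on that list and are not analysed here. Predicted genes and short RNAs were not named. Prkcd, Tcf7l2, the other plotted thalamus markers, Gh, Pmch and the genes called only in an alternative were chosen after their values were seen. Replicate numbers did not pair arrays: same-numbered celastrol arrays correlated at -0.101, -0.013 and 0.076 in their deviations. Alternatives were no filter on level, at least 11 arrays, probe set means, a further quantile normalization, median centring, limma-trend, array weights, only the groups compared, all probe sets, a block for replicate number and each array left out. Leaving out celastrol 6 h replicates 2 and 4, or celastrol 1 day replicate 2 with DMSO 1 day replicate 1, was added after seeing the data.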

Additional observations from a re-analysis of the deposited data

Results flagged for a closer look

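In groups of 4 arrays, a value was singled out where its gap to the nearest array exceeded Dixon's critical share of the group's range, which chance does in about 5% of groups. This held for 14 of 216 combinations of 72 named genes and 3 groups: 1 in celastrol 6 h, 5 in DMSO 1 day and 8 in DMSO 6 h. The groups of 3 celastrol arrays at 1 day were not tested. At 6 h after celastrol Srsf2, a splicing factor, was low in replicate 3 (11.34, nearest array 11.49).

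In DMSO arrays at 1 day, replicate 1 was low for Ociad2 (10.23, nearest 10.46) and Prox1 (9.33, nearest 9.47) and high for Psmd10 (10.24, nearest 10.03). Replicate 2 was low for Lcn2 (6.61, the others up to 7.03) and Lef1 (8.46, nearest 8.66). In DMSO arrays at 6 h, replicate 2 stood apart for 6 genes. It was low for Mal (11.47, nearest 11.64) and the complement gene C1qc (9.76, nearest 10.20), and high for Rtf2 (10.33), Psmd10 (10.01), Stip1 (12.32) and Ifit3 (9.11). Replicate 1 was low for Lcn2 (6.67, nearest 7.38) and replicate 4 for Tmf1 (9.99, nearest 10.03). These arrays enter the DMSO values printed beside the celastrol differences.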

How the results depend on the processing

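Fabp7 and Naa20 were the genes called with at least 11 arrays above the median, probe set means, a further quantile normalization, median centring, limma-trend and the replicate number as a block (2 genes each), and with all probe sets (3 probe sets, both of Naa20 among them). The count was 0 with no filter on level (lowest adjusted p 0.0617) and 0 with only the groups compared (0.353). Array weights gave 68 (19 higher, 49 lower), but their estimation stopped before convergence. Leaving out each array in turn gave 0 to 8 genes. Leaving out celastrol 6 h replicates 2 and 4 together, or the least typical 1 day array of each treatment, gave 0 genes. Fabp7 passed in 12 of 19 alternatives (difference -0.63 to -0.45, adjusted p 0.00384 to 0.353) and Naa20 in 11 of 19 (-0.51 to -0.37, adjusted p 0.000621 to 0.371). The DMSO comparison had 0 calls. For it, 11 arrays gave 10 genes, limma-trend 12, array weights 13, the replicate block 1 (Laptm5) and the least typical arrays left out 2. Fabp7 was among the DMSO genes called with 11 arrays, with limma-trend and with the least typical arrays left out. Each array left out gave 0 to 46, the 46 coming without DMSO 6 h replicate 3. The difference between treatments had 0 calls in every alternative run, the replicate block included, while its unadjusted higher share was 15.2%, 50.2% after quantile normalization and 65.0% after median centring. Signs turned for Lcn2 (-0.35 with array weights; -0.58 to 0.81 with each array left out), Osmr (-0.0121 to 0.374 with each array left out), Pomc (-0.0711 to 0.131 with each array left out; -0.12 without celastrol 6 h replicates 2 and 4), Hspa5 (-0.0074 to 0.0523 and -0.0164 likewise) and the Fabp7 difference between treatments (0.0423 without the least typical arrays). None of these passed, and the cause was not tested.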
